A study of Caenorhabditis elegans with 16 samples.

Results

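Small RNA from adult males that carried a prg-1 RNase mutant allele was compared with small RNA from males that carried a prg-1 null mutant allele. All 8 libraries labelled with these 2 genotypes were used, of 16 in the series: 3 from RNase mutant males and 5 from null males. The other 8 came from wild type males (5 libraries) and from males whose PRG-1 lacks its PAZ domain (3 libraries), and they enter below as levels or through the shared estimate of spread. Each sample was 20 to 30 whole Caenorhabditis elegans males, picked at mid-L4, kept at 25 °C and collected 24 hours later, so all groups shared the sex, the age and the temperature. The purified small RNA of every sample was treated with acid pyrophosphatase, which lets RNAs with a 5′ triphosphate enter the library. The labels give neither the allele names nor the strains, and no label ties the replicates to separate cultures, and the p-values here refer to the scatter between these samples alone, part of which may be technical.

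PRG-1 is the Piwi Argonaute protein of this worm. It binds piRNAs, called 21U-RNAs because they are 21 nucleotides long and begin with uridine, and in the germline these guide it to foreign and some endogenous transcripts. A Piwi protein with RNase (slicer) activity can cut an RNA that pairs with its guide, while silencing in this worm also runs through secondary small RNAs (22G-RNAs), which RNA-dependent RNA polymerases make with a 5′ triphosphate. In a null mutant no PRG-1 is left to hold the 21U-RNAs; the series' design text calls the other allele RNase dead. The comparison therefore asks what males with a PRG-1 that lacks RNase activity carry beyond males with no PRG-1. Most 21U-RNA genes of this worm lie in a pair of clusters on chromosome IV, each gene being its own small transcription unit.

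Genome-mapped reads numbered 2258068, 1377683 and 1117777 in the RNase mutant libraries, and between 1185732 and 2288967 in the null libraries. Sense reads at piRNA loci numbered 2416 to 8515 in the RNase mutant and 345 to 1101 in the null. Null replicates 4 and 5 stood apart from null replicates 1 to 3: 82.3 and 80.0% of their reads mapped to the genome, against 62.1, 67.3 and 73.3%, and the 3 genome bins with most reads took 13.3 and 12.4% of their mapped reads, against 29.5, 25.3 and 28.2%. The prg-1 transcript itself was not measured, so the 21U-RNAs are the nearest check of the null label.

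Males with the RNase mutant kept 21U-RNAs that the null had all but lost. Reads that the authors counted as 21U only stood at 1265, 1267 and 734 reads per 1000000 genome-mapped reads (RPM) in the RNase mutant libraries, against 14.3, 15.7, 17.0, 2.64 and 10.9 RPM in the null libraries. Every RNase mutant library lay far above every null library, and RNase mutant replicate 3 was the lowest of its group. The means were 1089 ± 307 RPM in the RNase mutant (SD, n = 3) and 12.1 ± 5.77 RPM in null males (n = 5), a ratio of 89.9 (two-sided exact permutation p = 0.0357, adjusted p = 0.0464 over the 13 measures tested; no split of 3 and 5 libraries can give a smaller p). Measures that reach this smallest p all share this adjusted p. Its size depends on how many of the 13 reach it, and several of them count the same reads. The null values rest on 17, 27, 39, 5 and 20 reads, so the size of the ratio is loosely fixed: it was 69.5 against null replicates 1 to 3 and 161 against null replicates 4 and 5. In wild type the same reads stood at 1266 ± 631 RPM (n = 5; 484 to 2207 RPM), a range that holds all 3 RNase mutant values. In these bulk samples fewer cells of a type and less RNA per cell cannot be told apart.

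Sense reads outside the 21U-only count were also more frequent in the RNase mutant, by a smaller factor. These other sense reads at piRNA loci had 2506, 2265 and 1427 RPM in the RNase mutant libraries, against 277, 254, 248, 456 and 588 RPM in the null libraries. The groups did not overlap, and within the null the highest values were those of replicates 4 and 5. The means were 2066 ± 566 RPM in the RNase mutant and 364 ± 152 RPM in the null (ratio 5.67, exact permutation p = 0.0357, adjusted p = 0.0464). Against null replicates 1 to 3 the ratio was 7.96, and against null replicates 4 and 5 it was 3.96. In wild type the mean was 774 ± 149 RPM, with 997 RPM in the highest library, so the RNase mutant libraries lay above the wild type range for these reads but not for 21U-only reads.

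All sense piRNA reads together had 3155 ± 869 RPM in the RNase mutant and 377 ± 148 RPM in the null (ratio 8.38, exact permutation p = 0.0357, adjusted p = 0.0464). Of these sense reads 33.5, 35.9 and 34.0% were 21U only in the RNase mutant libraries (Wilson 95% interval of the third 32.1 to 35.9%), against 4.93, 5.81, 6.44, 0.576 and 1.82% in the null libraries (Wilson 95% interval of the fourth 0.246 to 1.34%). The RNase mutant shares lay within a few percentage points of each other, while the null shares split into replicates 1 to 3 and replicates 4 and 5. The means were 34.5 ± 1.24% in the RNase mutant and 3.91 ± 2.57% in the null (exact permutation p = 0.0357, adjusted p = 0.0464). For scale, 61.4 ± 6.51% of sense piRNA reads were 21U only in the mutant without the PAZ domain (n = 3) and 59.5 ± 9.81% in wild type (n = 5). The authors' rule for a 21U-only read was not given in the sources used here. The intervals cover counting error alone and treat every read as an independent draw. Amplified reads do not stand for independent molecules, so the intervals may be too narrow.

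**Figure D1:**
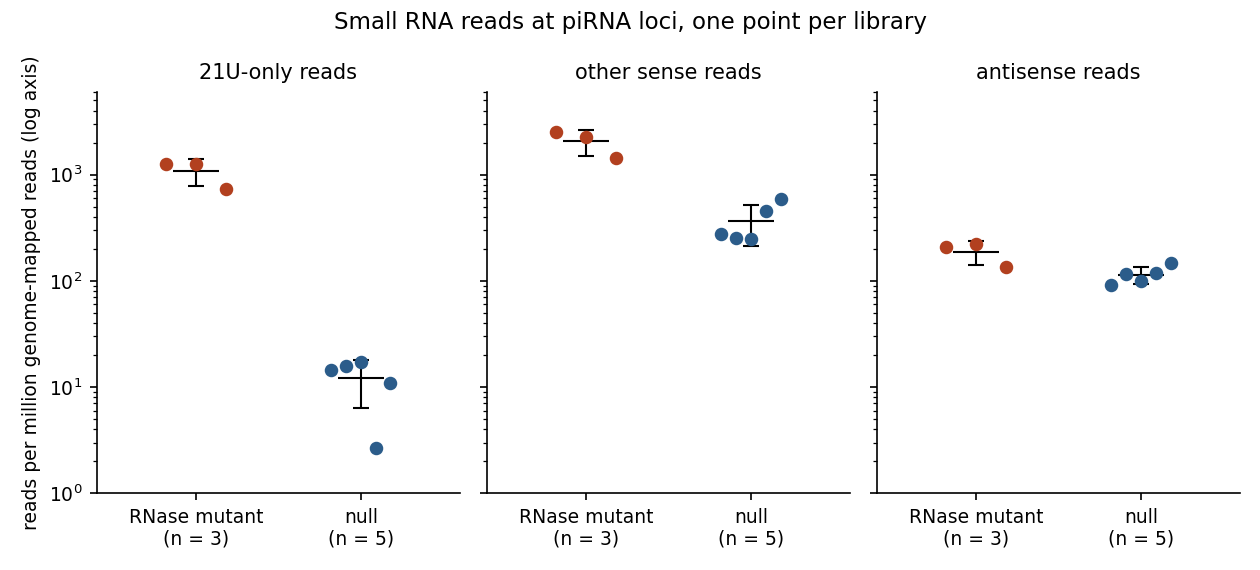
Reads per 1000000 genome-mapped reads at piRNA loci (log axis) in 3 RNase mutant and 5 null libraries, 1 point per library, for 21U-only, other sense and antisense reads; the bars are group means ± SD. The RNase mutant libraries lie above all null libraries for both kinds of sense reads, with means of 1089 and 12.1 for 21U-only reads, while the groups overlap for antisense reads.

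Reads antisense to the piRNA loci did not separate the genotypes. They had 210, 221 and 135 RPM in the RNase mutant libraries, against 91.1, 116, 99.6, 117 and 147 RPM in the null libraries. RNase mutant replicate 3 lay below null replicate 5, so the groups overlapped. The ratio of the means was 1.65 (189 ± 46.9 RPM in the RNase mutant and 114 ± 21.6 RPM in the null, exact permutation p = 0.0714, adjusted p = 0.0844). It was 1.85 against null replicates 1 to 3, all of which lay below every RNase mutant library, and 1.43 against null replicates 4 and 5. With the 3 most-read genome bins left out of the denominator the ratio was also 1.65, the groups no longer overlapped and the adjusted p was 0.0422 by the exact permutation test. Antisense reads made up 5.27, 5.90 and 5.88% of all reads at piRNA loci in the RNase mutant, against 23.8, 30.1, 27.3, 20.4 and 19.8% in the null (ratio of means 0.234, exact permutation p = 0.0357, adjusted p = 0.0464). The share was lower in the RNase mutant while the antisense RPM was not.

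The sense reads of the RNase mutant were also spread over more piRNAs. At an equal number of 345 sense reads per library, 240, 231 and 214 piRNA rows would have held a read in the RNase mutant libraries, against 87, 106, 92.2, 133 and 155 in the null libraries. No null library reached the lowest RNase mutant library. The means were 229 ± 13.3 rows in the RNase mutant and 115 ± 28.9 rows in the null (exact permutation p = 0.0357, adjusted p = 0.0464).

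The 10 rows with most reads took 15.7, 16.5 and 20.3% of the sense reads in the RNase mutant libraries, against 49.6, 52.5, 59.6, 42.4 and 35.6% in the null libraries. Every null library was above every RNase mutant library, and in null replicate 3 a single row took 20.8% of the sense reads. Library depth moves such shares, and null replicate 1 had a read in only 87 rows, so all of its reads fell in its top 100. After every library was thinned to 345 sense reads, the ratio of the top 10 share was 0.406, against 0.365 without thinning, and the groups still separated in the exact permutation test (adjusted p = 0.0464 in both). All 3 RNase mutant libraries had a read in 249 rows, of 1809 with a read in any of them. Those 249 rows held 52.8, 57.4 and 64.0% of the sense reads of the 3 libraries. Null replicates 1 to 3 shared 18 of 272 rows, which held a like part of their sense reads (54.8, 58.1 and 62.0%). Null replicates 4 and 5 had a read in the same row in 79 of 393 rows, with 68.7 and 58.6% of their sense reads. All sense reads of these libraries lay in the first 500 and 380 rows, a crowding that raises such a count. Whether their columns share a row order could not be checked, so the 79 rows do not show shared piRNAs. None of these row counts was brought to equal depth.

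**Figure D2:**
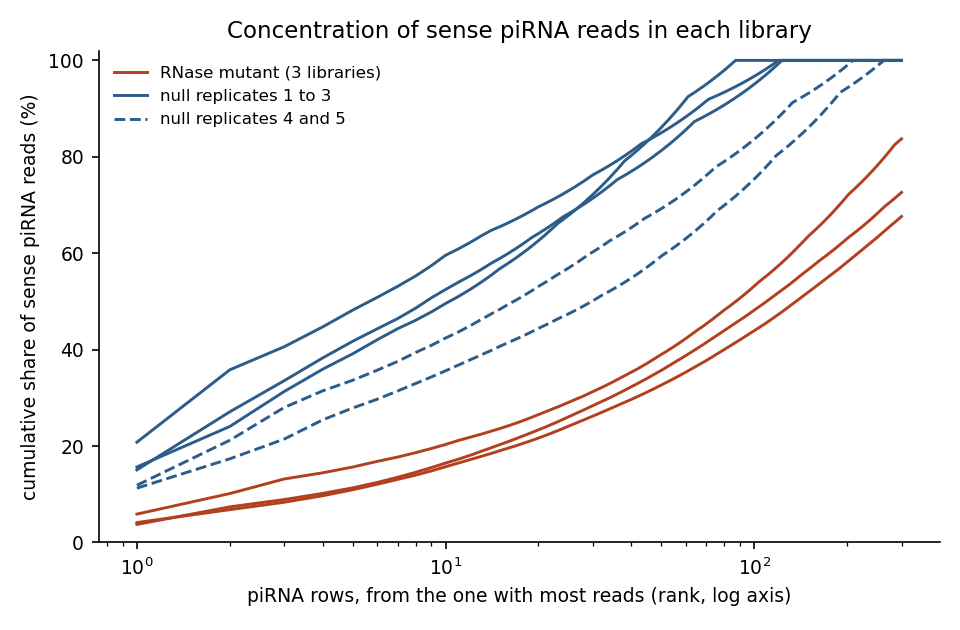
Cumulative share of sense piRNA reads (%) against the rank of the piRNA row (log axis), ranked within each of the 3 RNase mutant and 5 null libraries. All null curves run above the RNase mutant curves; at rank 10 the RNase mutant libraries stood at 15.7 to 20.3% and the null libraries at 35.6 to 59.6%.

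No single piRNA was compared between the genotypes, because the columns of the per-piRNA table do not all share a row order. From row 2001 on, a read in both of 2 RNase mutant columns was 8.61 to 9.91 times as frequent as by chance, and in both of 2 of the first 3 null columns 41.2 to 48.2 times. Between an RNase mutant column and one of those null columns the ratio was 0.684 to 1.96, on 2 to 6 shared rows. In null replicates 4 and 5 all sense reads lay in the first 500 and 380 rows, so this check could not be made for them. Over all rows an RNase mutant column and one of those 2 columns had a read in the same row 8.30 to 14.9 times as often as by chance. Chance was computed over all rows, and a crowding of reads in the first rows raises this ratio. It therefore does not show a shared row order. Sums and ranks within a library, as given above, do not depend on the row order, while the counts of rows shared between libraries do.

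Read counts in 100 kb bins of the genome (build ce11) located the differences. Of 1006 bins, 213 passed the test between RNase mutant and null (21.2%; edgeR quasi-likelihood test, adjusted p under 0.05 over all bins), with 136 higher (13.52%) and 77 lower (7.65%) in the RNase mutant. The RNase mutant and null libraries did not overlap in 380 bins (37.8%). The median log2 fold change of all bins was 0.19, and the split depended on the scaling: with TMM factors, which set the median to 0.00, 115 bins were higher and 142 lower, and 187 of the 213 calls were shared. All 213 bins kept their sign in every alternative fit. Against null replicates 4 and 5 alone 163 bins were called, 79 of them higher. A bin holds many genes on both strands, and its reads cannot be assigned to 1 gene or to 1 strand.

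In the larger piRNA cluster of chromosome IV the RNase mutant carried more small RNA than the null. This region, 13500001 to 17200000 in 37 bins, holds 11388 annotated piRNA genes, 74.1% of all. Of the 37 bins 20 were called higher (54.1%) and 0 lower in the RNase mutant, against the 13.52 and 7.65% of all bins, with a median log2 fold change of 1.03, against 0.19 over all bins. With TMM factors 20 were higher and 1 lower, with a median of 0.81, against 0.00 over all bins. In 27 of the 37 bins the RNase mutant and null libraries did not overlap in either direction, against 380 of all 1006 bins (37.8%). Of these 27 the bins at 14000001 to 14100000 and 14700001 to 14800000 were lower in the RNase mutant, and neither was called. Against null replicates 4 and 5 alone the count was 8 higher and 1 lower.

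Within that cluster the bin at 15100001 to 15200000, with 328 piRNA genes and mir-78, had 116, 106 and 81.4 RPM in the RNase mutant libraries, against 17.7, 8.12, 7.86, 17.4 and 25.0 RPM in the null libraries (log2 fold change 2.73, SE 0.37, edgeR adjusted p = 7.61e-06). The neighbouring bin at 15200001 to 15300000, with 413 piRNA genes, had 380, 285 and 210 RPM in the RNase mutant libraries, against 54.8, 58.6, 31.0, 46.0 and 57.6 RPM in the null libraries (log2 fold change 2.56, SE 0.38, edgeR adjusted p = 2.42e-05). In both bins the lowest RNase mutant library was more than 3 times the highest null library. Next in size were the bins at 13900001 to 14000000 (91.5 ± 17.3 RPM in the RNase mutant and 20.8 ± 8.39 RPM in the null), 15800001 to 15900000 (164 ± 42.8 RPM in the RNase mutant and 48.9 ± 22.8 RPM in the null) and 16100001 to 16200000 (187 ± 30.7 RPM in the RNase mutant and 57.5 ± 15.3 RPM in the null). The bin with most piRNA genes, 486 at 16000001 to 16100000, had 141 ± 38.8 RPM in the RNase mutant and 68.1 ± 9.72 RPM in null males (log2 fold change 1.05, SE 0.29, edgeR adjusted p = 0.0118). It lost its call without RNase mutant replicate 1 (edgeR adjusted p = 0.102) and against null replicates 4 and 5 alone (edgeR adjusted p = 0.106). In the 20 called bins the wild type mean was above the RNase mutant mean in 11 and between the means of the RNase mutant and the null in 9; in 0 was it below the null mean.

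The share of genome-mapped reads in the whole cluster was 1.44, 1.33 and 1.45% in the RNase mutant libraries, against 1.10, 1.12, 1.04, 1.19 and 1.24% in the null libraries (exact permutation p = 0.0357, adjusted p = 0.0464). Every RNase mutant library was higher than every null library, though the ratio of the means was only 1.23, since a few bins with many reads, also high in the null, make up most of the sum. Summed over the cluster, reads of any kind came to 14074 RPM in the RNase mutant and 11402 RPM in the null, a difference of 2672 RPM. Sense reads at piRNA loci differed by 2778 RPM, but these were counted over all piRNA loci of the genome. The differences therefore cover different reads, and their overlap was not determined.

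The smaller piRNA cluster, 4500001 to 7000000 on chromosome IV with 2816 piRNA genes in 25 bins, had 2 bins called higher and 2 lower. These were 8.0 and 8.0% of its bins, against 13.52 and 7.65% of all bins. Its median log2 fold change was 0.07, against 0.19 over all bins. Its share of genome-mapped reads was 8.95, 8.65 and 8.55% in the RNase mutant libraries, against 6.98, 7.49, 8.53, 4.69 and 3.62% in the null libraries (exact permutation p = 0.0357, adjusted p = 0.0464). That difference came from 1 bin, 5500001 to 5600000 with mir-228, mir-790 and 211 piRNA genes. It had 66209, 62817 and 60183 RPM in the RNase mutant libraries, against 26274, 40130, 48944, 26604 and 15156 RPM in the null libraries. Without it the share was 2.41% in the RNase mutant and 3.12% in the null (exact permutation p = 0.357, adjusted p = 0.422). The bin itself did not pass the edgeR test (log2 fold change 1.01, SE 0.46, adjusted p = 0.137). Of its 3 bins with most piRNA genes, the other two, 5800001 to 5900000 and 5700001 to 5800000, were not called either (log2 fold changes of 0.74 and 0.62, edgeR adjusted p = 0.0686 and 0.149). In an edgeR fit on only the 8 RNase mutant and null libraries the mir-228 bin and the bin at 5800001 were called (adjusted p = 0.0468 and 0.0183). In the bin at 5600001 to 5700000, with 143 piRNA genes, the RNase mutant was lower instead, at 244 ± 18.03 RPM, against 1514 ± 421 RPM in null males (log2 fold change -2.63, SE 0.34, edgeR adjusted p = 4.48e-06).

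By number of annotated piRNA genes, 21 of the 51 bins with over 100 were higher and 2 lower in the RNase mutant, with a median log2 fold change of 0.58 (41.2 and 3.92%, against 13.52 and 7.65% of all bins). Of the 453 bins with 0 piRNA genes 62 were higher and 43 lower (13.7 and 9.49%, median 0.18), of the 486 with 1 to 10 genes 53 were higher and 31 lower (10.9 and 6.38%, median 0.18), and of the 16 with 11 to 100 genes 0 were higher and 1 lower (median 0.13). Those 3 classes thus had shares and medians near or below those of all bins. With TMM factors the bins with over 100 piRNA genes had 20 higher and 6 lower, while the balance turned to lower calls in the bins with 0 piRNA genes (51 higher and 81 lower) and with 1 to 10 (44 and 54). Most of the called bins, and all of the 9 largest rises, lay outside the piRNA clusters, but so did most of all 1006 bins. The larger cluster held 37 bins and 20 of the 213 calls, and the smaller held 25 bins and 4 calls. The count of calls outside the clusters therefore does not show an excess there.

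**Figure D3:**
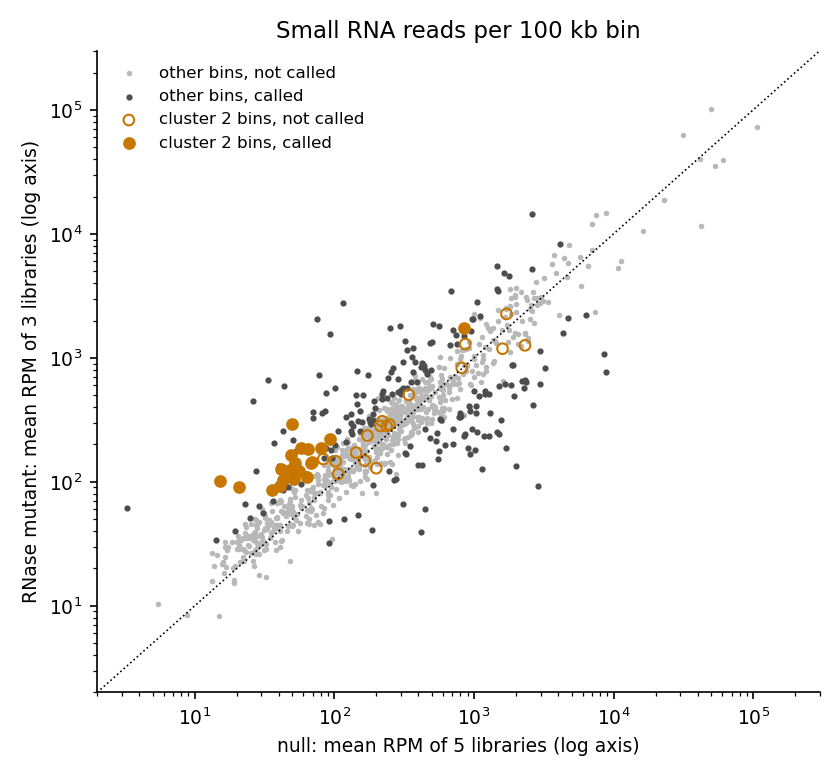
Mean RPM of 3 RNase mutant libraries (vertical) against that of 5 null libraries (horizontal), both on log axes, for 1006 bins of 100 kb; orange marks the 37 bins of the larger piRNA cluster, filled where called, and the dotted line is equality. The 20 called cluster bins all lie above the line, mostly at low levels.

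**Figure D4:**
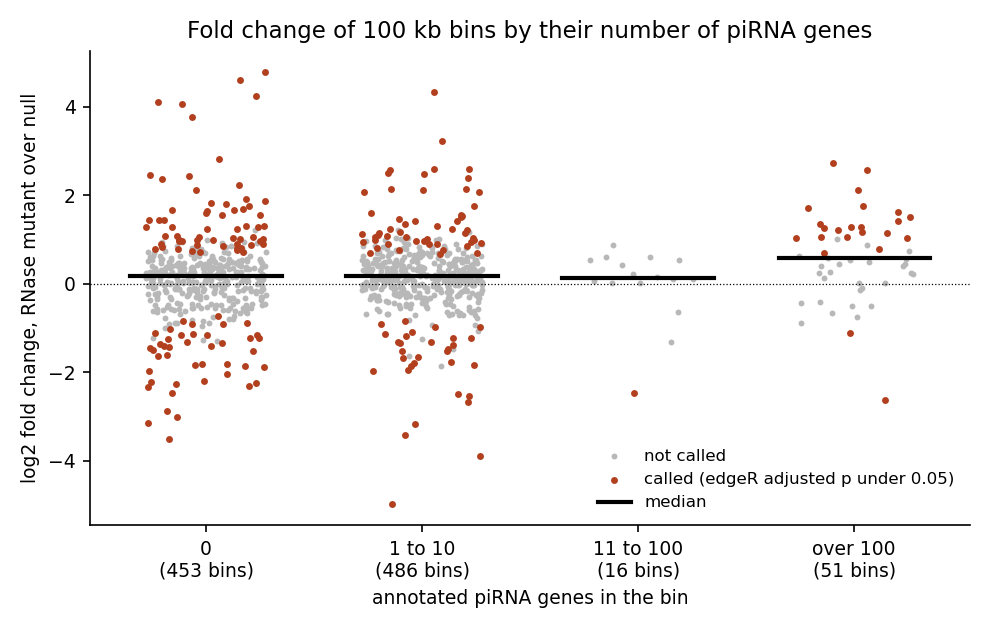
Log2 fold change (RNase mutant over null) of the 100 kb bins in 4 classes of annotated piRNA genes, 1 point per bin, with called bins in red and the class median as a black line. The median is 0.58 in bins with over 100 piRNA genes and 0.13 to 0.18 in the other classes.

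The largest rises were in single regions without piRNA clusters, where the RNase mutant stood far above the null and also above wild type. The bin at V 9800001 to 9900000, in which 15 of 20 protein-coding genes are chemoreceptor genes (sru, str, srab and srsx families), had 1943, 1974 and 2237 RPM in the RNase mutant libraries, against 45.5, 200, 54.2, 38.6 and 35.3 RPM in the null libraries. All RNase mutant libraries were high and null replicate 2 was the highest of its group (log2 fold change 4.78, SE 0.43, edgeR adjusted p = 2.46e-08). Wild type had 70.9 ± 16.5 RPM there. The bin at V 17600001 to 17700000 had 2776, 2907 and 2700 RPM in the RNase mutant libraries, against 127, 133, 89.1, 101 and 124 RPM in the null libraries (log2 fold change 4.61, SE 0.29, edgeR adjusted p = 1.45e-10). Here wild type, at 312 ± 78.6 RPM, lay between them. The bin at III 2500001 to 2600000, which holds apb-1, an adaptor protein subunit of vesicle coats, had 1592, 1410 and 1667 RPM in the RNase mutant libraries, against 85.2, 138, 67.3, 90.9 and 82.1 RPM in the null libraries (log2 fold change 4.07, SE 0.27, edgeR adjusted p = 3.24e-10).

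Of the other 6 of the 9 largest rises, 5 lay on the X chromosome, which has 178 of the 1006 bins. The bin at X 9100001 to 9200000 had 1166, 351 and 486 RPM in the RNase mutant libraries, against 15.3 to 49.8 RPM in the null libraries (log2 fold change 4.34). The RNase mutant libraries differed among themselves there, with replicate 1 highest, as it also was at X 1100001 to 1200000 (449 ± 190 RPM in the RNase mutant and 26.2 ± 10.8 RPM in null males, log2 fold change 4.12), at X 1500001 to 1600000 (597 ± 243 RPM in the RNase mutant and 43.7 ± 8.07 RPM in null males, log2 fold change 3.77) and at X 16800001 to 16900000 (728 ± 305 RPM in the RNase mutant and 77.9 ± 12.1 RPM in null males, log2 fold change 3.23). The last of these holds mec-4, which encodes a subunit of the touch-sensing ion channel. At X 17700001 to 17800000, a bin with 2 protein-coding genes, levels were low, at 61.7 ± 22.5 RPM in the RNase mutant and 3.25 ± 1.58 RPM in null males (log2 fold change 4.24). The bin at III 13300001 to 13400000 completed the list with 1752 ± 92.4 RPM in the RNase mutant and 250 ± 52.9 RPM in null males (log2 fold change 2.81). These calls were kept in every alternative fit.

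Over the whole X chromosome 29 of 178 bins were higher and 3 lower in the RNase mutant (16.3 and 1.69%, against 13.52 and 7.65% of all bins), with a median log2 fold change of 0.47, against 0.19 over all bins. With TMM factors the counts were 20 and 4 (11.2 and 2.25%, against 11.4 and 14.1% of all bins), with a median of 0.25, against 0.00. In that fit the share of higher bins on X was thus near that of all bins, and the share of lower bins was smaller. Chromosome I had 16 of 151 bins higher and 19 lower (10.6 and 12.6%, median 0.02), or 13 and 39 with TMM factors. Chromosomes II, III and V had 16 and 17 of 153 (10.5 and 11.1%), 17 and 12 of 138 (12.3 and 8.70%), and 24 and 15 of 210 bins (11.4 and 7.14%) higher and lower. With TMM factors the counts were 15 and 25, 18 and 23, and 20 and 29. On chromosome IV outside the clusters 12 of 113 bins were higher and 9 lower (10.6 and 7.96%, median 0.10), or 8 and 15 with TMM factors. The balance on chromosomes III, V and IV outside the clusters thus turned with the scaling.

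In 8 of the 10 largest falls the wild type mean was below the null mean, and the RNase mutant lay nearer to wild type than the null did. The bin at IV 3300001 to 3400000, which holds hrpa-1, an RNA-binding protein gene, and vha-19, a proton pump gene, had 75.7, 88.6 and 112 RPM in the RNase mutant libraries, against 2051, 2473, 2810, 3416 and 3706 RPM in the null libraries (log2 fold change -4.98, SE 0.43, edgeR adjusted p = 1.82e-08). Wild type had 105 ± 58.8 RPM. The bin at IV 2800001 to 2900000, which holds several C-type lectin (clec) genes, had 142, 105 and 154 RPM in the RNase mutant libraries, against 1327 to 2814 RPM in the null libraries (log2 fold change -3.90) and 319 ± 89.5 RPM in wild type. At III 10300001 to 10400000, with ced-9, the cell-death inhibitor, and mev-1, a subunit of respiratory complex II, the RNase mutant had 187 ± 32.7 RPM, the null 1686 ± 291 RPM (log2 fold change -3.17) and wild type 153 ± 60.5 RPM. The bin at II 12400001 to 12500000, in which 15 of 36 protein-coding genes are chemoreceptor genes, had 39.2 ± 14.4 RPM in the RNase mutant, 419 ± 49.0 RPM in null males (log2 fold change -3.43) and 53.5 ± 15.5 RPM in wild type. The 10 largest rises and falls were picked among called bins without overlap, so the separation of their libraries was fixed by that choice. In these 4 bins the RNase mutant mean was below the wild type mean except in the bin of ced-9.

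In 3 further bins of the largest falls the wild type mean was likewise below the null mean. The RNase mutant had 127 ± 4.04 RPM at III 1100001 to 1200000, against 1137 ± 203 RPM in null males (log2 fold change -3.16). It had 60.4 ± 14.1 RPM at II 600001 to 700000, against 446 ± 41.2 RPM in null males (log2 fold change -2.88). At I 8100001 to 8200000 it had 416 ± 38.8 RPM, against 2668 ± 269 RPM in null males (log2 fold change -2.68) and 413 ± 171 RPM in wild type. In the remaining pair of falls the wild type mean was above the null mean. At I 10800001 to 10900000, with mir-1817, the RNase mutant libraries had 890, 703 and 717 RPM, against 2304, 2673, 2241, 15161 and 21456 RPM in the null libraries (log2 fold change -3.51, SE 0.86, edgeR adjusted p = 0.00424). At I 2900001 to 3000000 the RNase mutant libraries had 1030, 1021 and 1154 RPM, against 2654, 4872, 1464, 11269 and 22614 RPM in the null libraries (log2 fold change -3.005, SE 0.88, edgeR adjusted p = 0.0157). In both, null replicates 4 and 5 were several times as high as null replicates 1 to 3, and wild type had 9599 ± 6087 RPM in the mir-1817 bin and 40195 ± 29329 RPM in the other. Against null replicates 1 to 3 alone neither was called (edgeR adjusted p = 0.0706 with mir-1817 and 0.180 for the other). The call at I 2900001 was also lost without any one of the RNase mutant replicates (edgeR adjusted p = 0.0615 to 0.0682) and with the replicate block (edgeR adjusted p = 0.0884).

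Over all called bins the wild type mean lay between the means of the 2 mutants in 78 of the 136 higher bins and in 40 of the 77 lower bins. It lay beyond the RNase mutant mean in 30 and 18 of them, and beyond the null mean in 28 and 19. These are counts of levels with no test.

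Of the 17 bins with a histone gene 6 were higher and 1 was lower in the RNase mutant (35.3 and 5.88%, against 13.52 and 7.65% of all bins), with a median log2 fold change of 0.52, against 0.19 over all bins. Histones package DNA, and most of their genes here lie in repeated groups of near-identical copies, between which reads could be split. With TMM factors 6 were higher and 2 lower. The bin at V 8500001 to 8600000, with 5 histone genes, mir-357 and mir-358, had 1431, 1452 and 1190 RPM in the RNase mutant libraries, against 311, 361, 357, 298 and 275 RPM in the null libraries (log2 fold change 2.08, SE 0.25, edgeR adjusted p = 1.27e-06). The groups lay far apart, and wild type had 285 ± 81.1 RPM. The 2 bins with most histone genes were not called: II 13800001 to 13900000 with 13 had 2596 ± 764 RPM in the RNase mutant and 1807 ± 301 RPM in the null, and V 8800001 to 8900000 with 14 had 2460 ± 410 RPM in the RNase mutant and 1703 ± 217 RPM in the null. The histone bin that was lower, X 14400001 to 14500000, had 138 ± 61.5 RPM in the RNase mutant and 425 ± 76.7 RPM in null males (log2 fold change -1.63, edgeR adjusted p = 0.00972), a call that was lost without RNase mutant replicate 1 or 2 (edgeR adjusted p = 0.0643 and 0.0683). It holds 1 histone gene beside tRNA, snRNA and snoRNA genes.

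Genes for the major sperm proteins, the abundant cytoskeletal proteins of nematode sperm, lie in 14 of the bins. Of these 0 were called higher and 1 lower (0 and 7.14%, against 13.52 and 7.65% of all bins), so the share of lower bins was near that of all bins. The lower one, IV 10100001 to 10200000, had 657 ± 43.6 RPM in the RNase mutant and 2309 ± 392 RPM in null males (log2 fold change -1.81, SE 0.34, edgeR adjusted p = 0.000368). The median of the 14 bins was -0.04, and with TMM factors 1 was higher and 2 were lower. Among bins with other small RNA genes, 29 of 182 with a miRNA gene were higher and 10 lower, 43 of 297 with a tRNA gene were higher and 22 lower, 12 of 68 with an snRNA gene were higher and 5 lower, and 32 of 274 with a snoRNA gene were higher and 27 lower. Medians were 0.14 to 0.22 in these 4 classes, near the 0.19 of all bins. Their shares were 11.7 to 17.6% higher and 5.49 to 9.85% lower, near the 13.52 and 7.65% of all bins. With TMM factors the counts higher and lower were 20 and 20 for miRNA, 36 and 39 for tRNA, 9 and 14 for snRNA and 27 and 42 for snoRNA genes.

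Of the 5 bins with an rRNA gene 0 were higher and 1 was lower (0 and 20%, against 13.52 and 7.65% of all bins), a share that rests on a single bin. It was V 17400001 to 17500000 (105 ± 37.8 RPM in the RNase mutant and 279 ± 41.4 RPM in null males, log2 fold change -1.42). The 5 bins together took 4.40, 7.68 and 5.32% of mapped reads in the RNase mutant libraries, against 7.39, 7.32, 6.25, 17.4 and 18.4% in the null libraries. Null replicates 4 and 5 were the high ones, and the part of this difference in the other results was not tested.

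Among 7 bins chosen for marker miRNAs, 2 were called, both higher (28.6%, against 21.2% of all bins). The bin of let-7, a miRNA of developmental timing, had 3976, 3109 and 3369 RPM in the RNase mutant libraries, against 659, 801, 852, 584 and 505 RPM in the null libraries (log2 fold change 2.36, SE 0.34, edgeR adjusted p = 1.73e-05). The groups were far apart, and the mean was 680 ± 145 RPM in the null and 660 ± 171 RPM in wild type. The bin of mir-35 to mir-41, miRNAs of the germline and embryo, had 582, 978 and 821 RPM in the RNase mutant libraries, against 483, 585, 437, 411 and 310 RPM in the null libraries. RNase mutant replicate 1 lay just below null replicate 2, so the groups overlapped (log2 fold change 0.83, SE 0.25, edgeR adjusted p = 0.0165), and the call was lost with TMM factors (edgeR adjusted p = 0.0706) and in 5 other alternatives (highest edgeR adjusted p = 0.130, without RNase mutant replicate 2).

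The bin of mir-71, a widely expressed miRNA, did not pass although its groups did not overlap (3553, 3735 and 3640 RPM in the RNase mutant libraries and 1427 to 2490 RPM in the null libraries, log2 fold change 0.86, SE 0.35, edgeR adjusted p = 0.0923). It was called in the fit on only the 8 libraries (edgeR adjusted p = 0.00790). The bins of lin-4, also of developmental timing, mir-1 of muscle, and lsy-6 and mir-124 of neurons were not called. Their levels were 899 ± 160 RPM in the RNase mutant and 762 ± 298 RPM in the null for lin-4, and 5458 ± 1438 RPM in the RNase mutant and 6585 ± 580 RPM in the null for mir-1. For lsy-6 they were 71.5 ± 3.51 RPM in the RNase mutant and 71.1 ± 11.5 RPM in the null, and for mir-124 571 ± 55.6 RPM in the RNase mutant and 590 ± 28.5 RPM in the null. The groups overlapped in all 4.

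**Figure D5:**
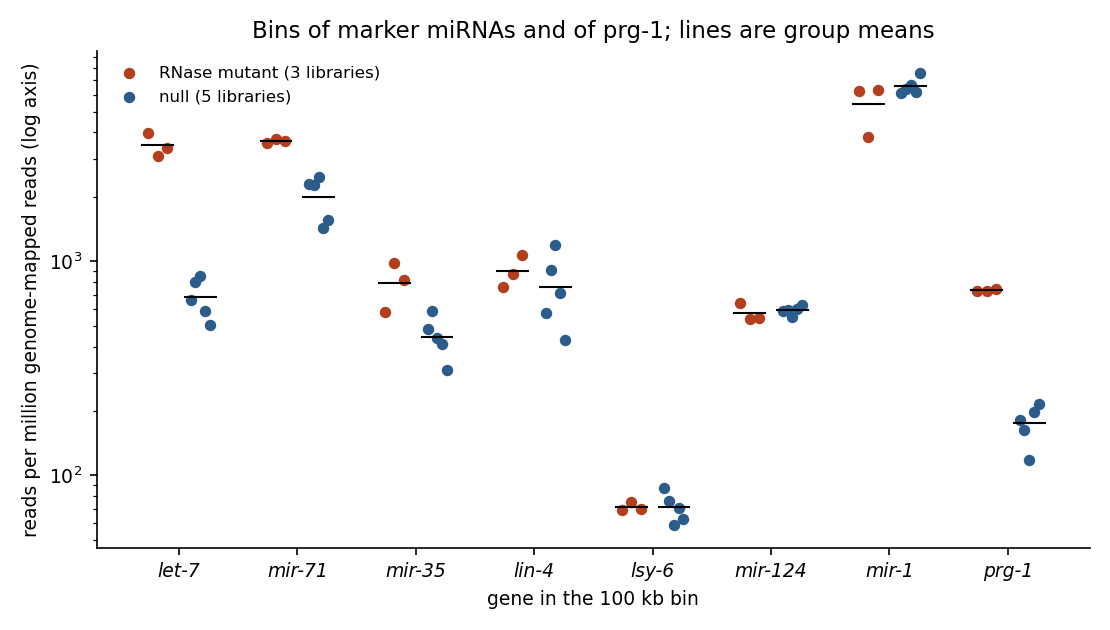
RPM (log axis) of the 100 kb bins that hold 7 marker miRNAs and prg-1 itself, 1 point per library, with 3 RNase mutant libraries to the left and 5 null libraries to the right of each pair and lines at the group means. The groups lie far apart in the bins of let-7 (3485 and 680) and prg-1 (733 and 175) and overlap in those of mir-35, lin-4, lsy-6, mir-124 and mir-1.

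The genes of germline small RNA pathways lie in 17 of the bins, of which 1 was called higher and 2 lower (17.6%, against 21.2% of all bins). The one that was higher holds prg-1 itself, at I 7500001 to 7600000. It had 726, 730 and 743 RPM in the RNase mutant libraries, against 182, 162, 118, 199 and 216 RPM in the null libraries (log2 fold change 2.06, SE 0.27, edgeR adjusted p = 5.43e-06). The RNase mutant libraries were close together, and wild type, at 465 ± 151 RPM, lay between the mutants. The reads of the bin were not assigned to prg-1, which is 1 of 24 protein-coding genes there. The 2 lower bins hold prde-1, needed for piRNA precursor transcripts, and wago-4, an Argonaute that binds 22G-RNAs. The prde-1 bin had 806, 456 and 553 RPM in the RNase mutant libraries, against 1901, 1624, 1859, 1758 and 2057 RPM in the null libraries (log2 fold change -1.60, SE 0.32, edgeR adjusted p = 0.000687), and it also holds 7 tRNA genes. The wago-4 bin averaged 358 RPM in the RNase mutant and 801 RPM in null males (log2 fold change -1.16, edgeR adjusted p = 0.0327). The bins of the remaining genes of the list, among them henn-1, the methyltransferase of piRNA 3′ ends, parn-1, the nuclease that trims them, and the Argonautes hrde-1, wago-1, csr-1, alg-3, alg-4 and ergo-1, were not called.

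The 10 bins with most reads, which set much of the scale of all RPM values, were not called in either direction in the fit on all 16 libraries. In 3 of them the groups did not overlap, all with higher values in the RNase mutant: the bin of mir-80, mir-90 and mir-238 at III 8800001 to 8900000 (101225 ± 11736 RPM in the RNase mutant and 49772 ± 14285 RPM in null males, log2 fold change 1.02, edgeR adjusted p = 0.144), the mir-228 bin given above, and II 3300001 to 3400000 with mir-260 (14601 ± 2281 RPM in the RNase mutant and 8851 ± 956 RPM in null males, log2 fold change 0.72, edgeR adjusted p = 0.162). In the fit on only the 8 libraries all 3 were called (edgeR adjusted p = 0.0277 for the mir-80 bin, 0.0468 for the mir-228 bin and 0.0223 for the mir-260 bin). In several of the 10 bins null replicates 4 and 5 lay apart from null replicates 1 to 3. At IV 12700001 to 12800000, with 4 snRNA genes, the RNase mutant libraries had 64221, 70021 and 82396 RPM, against 195465, 128151, 148425, 20831 and 39427 RPM in the null libraries. At V 17100001 to 17200000, with 14 rRNA genes, they had 9950, 9732 and 15312 RPM, against 19296, 18432, 13084, 83372 and 78970 RPM in the null libraries. This bin was called lower in the fit on only the 8 libraries (edgeR adjusted p = 0.0387) and against null replicates 4 and 5 alone (edgeR adjusted p = 0.0416). At I 15000001 to 15100000, also with rRNA genes, they had 21823, 57414 and 27144 RPM, against 42410, 41535, 35523, 68728 and 78718 RPM in the null libraries (log2 fold change -0.59). For IV 9300001 to 9400000 and IV 4700001 to 4800000 the null libraries split the same way as at IV 12700001, with replicates 4 and 5 below all RNase mutant libraries and replicates 1 to 3 above them. The first was called higher against null replicates 4 and 5 alone (edgeR adjusted p = 0.0488). The bin of mir-57 at II 7800001 to 7900000 and that of mir-81 and mir-82 at X 2400001 to 2500000 had overlapping groups (log2 fold changes of -0.64 and -0.05).

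Called bins that led other lists gave further single regions. The bin of mir-51 and mir-53 at IV 11000001 to 11100000 had 4323, 4129 and 6047 RPM in the RNase mutant libraries, against 1787, 2484, 2488, 845 and 618 RPM in the null libraries (log2 fold change 1.56, SE 0.47, edgeR adjusted p = 0.0193). Its groups did not overlap, but the call was lost with TMM factors (edgeR adjusted p = 0.0850), without RNase mutant replicate 3 (0.0912) and against null replicates 1 to 3 alone (0.122). The bin at II 12100001 to 12200000 had 325 ± 33.9 RPM in the RNase mutant, 69.8 ± 21.5 RPM in null males (log2 fold change 2.22, edgeR adjusted p = 2.39e-05) and 411 ± 151 RPM in wild type, with the RNase mutant nearer to wild type than the null was. At V 200001 to 300000 the RNase mutant had 618 ± 186 RPM and the null 2951 ± 521 RPM (log2 fold change -2.26, edgeR adjusted p = 2.46e-06), both above the 105 ± 11.6 RPM of wild type. At IV 2600001 to 2700000, with an snRNA and a tRNA gene, the RNase mutant had 181 ± 28.6 RPM and the null 1017 ± 244 RPM (log2 fold change -2.49). At IV 6200001 to 6300000, with 93 piRNA genes, the RNase mutant had 168 ± 35.6 RPM and the null 930 ± 298 RPM (log2 fold change -2.47). At X 3300001 to 3400000 the RNase mutant had 649 ± 178 RPM and the null 2219 ± 1057 RPM (log2 fold change -1.77). Both were below the 5593 ± 3232 RPM of wild type, and the call was lost without RNase mutant replicate 2 (edgeR adjusted p = 0.0593) and against null replicates 4 and 5 alone (0.0893). The bin at X 17000001 to 17100000, with an snRNA gene, had 177 ± 18.02 RPM in the RNase mutant and 52.7 ± 23.3 RPM in null males (log2 fold change 1.75). That call was lost against null replicates 4 and 5 alone (edgeR adjusted p = 0.0755). The called bin of the smaller piRNA cluster with the largest log2 fold change, IV 4500001 to 4600000 with 0 annotated piRNA genes, had 332 ± 23.6 RPM in the RNase mutant and 121 ± 21.3 RPM in null males (log2 fold change 1.45).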

How the data were processed

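The submitters' processing notes name cutadapt 3.7 and FastQC 0.12.0. The sources used here do not give an aligner, its settings or the treatment of reads with several places. The authors deposited, per the file headers, counts of reads for each library, for 15913 piRNA names (sense and antisense) and for 100 kb bins of ce11, along with RPM per library. RPM was recomputed from the counts per 1000000 genome-mapped reads and equalled the authors' deposited RPM. Among the per-piRNA counts, 1 non-numeric cell was read as 0.

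Single measures were compared by two-sided exact permutation tests over libraries (56 splits), with Benjamini-Hochberg adjustment over 13 measures. For the bins the quasi-likelihood test of edgeR 4.0.16 was used in R 4.3.3. All 16 libraries entered 1 fit, in which genome-mapped reads served as library size without further scaling. A bin needed 10 or more reads in 3 or more libraries, and calls were made at a Benjamini-Hochberg adjusted p under 0.05. In simulated counts of this comparison over 1006 bins, 99.0% of bins changed by a log2 size of 2 and 59.2% of those changed by 1 were called, against 0.744% of unchanged bins. The simulated libraries varied independently, without the split seen among the null replicates, so these rates may not hold for the real counts. Gene annotation came from Ensembl release 115 (WBcel235, identical to ce11), except for let-7, whose position was read from the RefSeq table. TMM factors, DESeq2 1.42.0, other filters, library sizes and subsets of libraries were tried as alternatives.

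One read was worth 0.443 to 0.895 RPM in the RNase mutant and 0.437 to 0.843 RPM in the null. No 2 libraries of a genotype agreed within sampling noise over the bins (chi-square per degree of freedom of at least 41.3). Lists of bins are described by counts and medians, with no test. The 59 named bins are the 10 largest rises and falls among called bins without overlap, the 10 with most reads, 7 marker miRNA bins, the highest and lowest called bin of each list, the 3 bins of each piRNA cluster with most piRNA genes and the 5 largest rises of the larger cluster. The comparison, lists and markers were chosen with earlier results of these data known. No small RNA sequences were used here.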

Additional observations from a re-analysis of the deposited data

Results flagged for a closer look

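In the null, replicate 2 had 199.5 RPM in the bin at V 9800001 to 9900000, while the other null libraries had 35.3 to 54.2 RPM. Its gap to the nearest library was 0.885 of the range of the 5 null libraries, above the critical value of 0.71 (Dixon's test at 95%). This was 1 of 72 sets of null values examined in this way, and chance gives such a gap in about 1 of 20 groups. The RNase mutant libraries had 1943, 1974 and 2237 RPM in the same bin, so the difference between the genotypes has the same direction with or without null replicate 2 (log2 fold change 4.60 to 5.56 with 1 library left out).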

How the results depend on the processing

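With 1 library left out the exact permutation tests cannot pass (smallest p 0.0571 or 0.0952), so the calls of the single measures end there by construction. The ratios of RNase mutant over null stayed on 1 side of 1, at 75.2 to 105 for 21U-only reads, 5.06 to 6.69 for other sense, 7.56 to 9.83 for all sense and 1.51 to 1.89 for antisense reads, 7.26 to 10.5 for the 21U-only share, 0.224 to 0.249 for the antisense share, 1.88 to 2.19 for piRNA rows, 0.336 to 0.389 and 0.511 to 0.562 for the top 10 and top 100 rows, and 1.21 to 1.27 and 1.26 to 1.53 for the larger and the smaller piRNA cluster. The ratios of the genome-mapped share (0.961 to 1.03) and of the 3 most-read bins (0.884 to 1.07) crossed 1.

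Against null replicates 1 to 3 alone, where the smallest p is 0.1, the ratios in the same sequence without the antisense RPM were 69.5, 7.96, 11.5, 6.02, 0.210, 2.41, 0.325, 0.498, 1.29 and 1.14 (adjusted p = 0.108), and the genome-mapped share turned to 1.08. Pairing replicates 1 to 3 by number (replicate block) gives the same ratios, with a smallest sign-flip p of 0.25 (adjusted p = 0.271) and 1.08 for the genome-mapped share. Deviations of same-numbered libraries from their group means had correlations of -0.08, 0.05 and -0.01 over the bins. The null deviations also hold the difference between replicates 1 to 3 and replicates 4 and 5. These values therefore cannot show whether the numbers pair the samples. Against null replicates 4 and 5 alone, an alternative chosen after seeing the data, the ratios were 161, 3.96, 5.97, 28.8, 0.283, 1.58, 0.449, 0.609, 1.16 and 2.10 (adjusted p = 0.217), and the 3 most-read bins turned to 1.65. The antisense ratio of 1.65 passed with the 3 most-read bins out of the denominator. The smaller cluster's share turned to 0.772 without its most-read bin, also chosen after seeing the data.

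Called bins numbered 136 higher and 77 lower. They were 115 and 142 with TMM factors, 130 and 148 with DESeq2, 224 and 118 with only the 8 libraries, 79 and 84 against null replicates 4 and 5, 135 and 66 with the replicate block, and 94 to 125 and 58 to 84 with 1 library left out. In the larger cluster 20 were higher and 0 lower. There were 17 to 20 and 0 to 1 with 1 library left out, 8 and 1 against null replicates 4 and 5, and 1 was lower with TMM factors, DESeq2, the 8 libraries or the library size without the 3 most-read bins. Bins that were not called and changed sign were those of IV 12700001 (1.26), X 2400001 (0.19), IV 9300001 (2.14, adjusted p = 0.0488) and IV 4700001 (1.63) against null replicates 4 and 5; lsy-6 with TMM factors (-0.19), DESeq2 (-0.15), null replicates 1 to 3 (-0.049) and the reduced library size (-0.016); mir-124 with the replicate block (0.058); and lin-4 with TMM factors (-0.014). With 1 library left out X 2400001 ranged from -0.13 to 0.037, IV 9300001 from -0.58 to 0.094 and lsy-6 from -0.054 to 0.094. The causes were not tested. Each null library had 5 to 39 reads counted as 21U only, so counting error is large in ratios to them.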
